A study of Danio rerio with 28 samples.

Results

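The genes described here encode the factors that start and extend protein synthesis on the ribosome, the eukaryotic initiation factors (EIF) and elongation factors (EEF), in zebrafish embryos. They were chosen by symbol alone. Every Ensembl gene identifier whose symbol begins with EIF1, EIF2, EIF3, EIF4, EIF5, EIF6 or EEF was taken, upper or lower case, and the 3 genes named EIF1, EIF5 and EIF6 with nothing after the number were included. This gave 77 members of 33737 identifiers, 21939 of them with a symbol in the table used. Of the 77, 14 share their symbol with another identifier, so that there are 70 distinct symbols, and such a member is given with its identifier. The symbol table lists 8 further identifiers that the same rule would take, among them eef2b, EIF3L, EIF4A3 and a second EIF3H. They have no counts in these data, so their levels are not known and they were not analysed here. Roles were assigned from the symbol alone, so a group may hold a gene that does not act in that role. By this grouping 12 members fall under start codon selection and delivery of the initiator tRNA and 5 under the EIF2B exchange factor. The EIF3 scaffold has 15, cap binding and unwinding of the mRNA leader 18, elongation 15 and regulation of the others 11. EIF6, which keeps the ribosomal subunits apart, stands alone.

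Messenger RNA was sequenced from whole embryos of the AB strain in 28 libraries that form 14 groups of 2. Poly(A)-selected RNA was read in 20 libraries: wild type (WT) at 0, 2, 3, 4 and 6 hours post fertilisation (hpf), ybx1 morphants (ybx1 MO) of 3, 4 and 6 hpf, and pabpc1a morphants (pabpc1a MO) of 4 and 6 hpf, morphants being embryos given an antisense morpholino. RNA depleted of ribosomal RNA was read in 8 libraries: embryos given 0.2 ng of alpha-amanitin, an inhibitor of RNA polymerase II, at the one-cell stage and taken at 2, 4 and 6 hpf, and WT embryos at 4 hpf. YBX1 binds RNA through its cold shock domain, while pabpc1a codes for the protein that coats poly(A) tails in the cytoplasm. The sources used here name no control morpholino, so each knockdown was set against WT of the same hour. A morpholino may leave the target mRNA in place.

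Initiation begins when EIF2, bound to GTP, carries the initiator tRNA to the small ribosomal subunit, where EIF1, EIF1A, EIF5 and the EIF3 complex gather. The cap of the mRNA is held by EIF4E, which binds the scaffold EIF4G and the helicase EIF4A, and EIF4E-binding proteins (EIF4EBP) compete with EIF4G for it. Once EIF5B has joined the subunits, EEF1A brings each aminoacyl-tRNA and EEF2 moves the ribosome along. The fish egg carries a store of these mRNAs, and the embryo lives on stored mRNA until its own genome becomes active. In that period the poly(A) tails of stored mRNAs lengthen and shorten, which changes how much of an mRNA poly(A) selection captures.

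Depth ran from 48.2 to 100.0 M counted reads in the poly(A) and from 39.9 to 66.4 M in the rRNA-depleted set. Levels are CPM, counts scaled to a common library total, adjusted by the trimmed mean of M values (TMM) and set separately for the kits. They are relative to the TMM-scaled total, are not plain shares of the counted reads and are not corrected for gene length. They are therefore compared between libraries of a kit and not between genes. A gene was called when edgeR's quasi-likelihood test gave it an adjusted p (Benjamini-Hochberg, across every gene tested) under 0.05. The 2 libraries of WT at 4 hpf stood apart from each other. Among genes of at least 1 CPM, 2078 of 14346 differed at least 2-fold between them, against 14 to 736 in the other groups. The replicate 1 library of that pair had a summed level of 4 gastrula markers of 309 CPM against 74.2 CPM in replicate 2, and of 6 egg markers of 277 against 471 CPM. Nearly all of that gastrula sum was the marker krt8, at a mean of 189.7 CPM over the pair. The pabpc1a MO libraries of 6 hpf differed in TMM factor, 0.6418 against 0.8461, and 723 of 14401 genes were at least 2-fold apart. YBX1 mRNA was at 238 and 316 CPM in WT and 375 and 373 CPM in ybx1 MO at 3 hpf, at 761 and 449 against 434 and 455 CPM at 4 hpf, and at 2050 and 2368 against 2611 and 2602 CPM at 6 hpf. The ybx1 MO libraries thus lay above WT at 3 and 6 hpf and overlapped WT at 4 hpf. The pabpc1a mRNA was at 863 and 627 CPM in WT and 484 and 509.9 CPM in pabpc1a MO at 4 hpf, and at 1351 and 1970 against 1501 and 1391 CPM at 6 hpf, where the groups overlap. In amanitin embryos 4 genes of the first zygotic wave summed to 0.758 and 0.998 CPM at 2 hpf, 8.26 and 8.86 CPM at 4 hpf and 0.705 and 0.274 CPM at 6 hpf, against 439.5 and 436 CPM in WT at 4 hpf of the same kit. All 4 were called higher in amanitin at 4 than at 2 hpf, so these mRNAs were low there and not absent.

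Over WT development the TMM-scaled summed level of the 77 members fell after fertilisation and was highest at 6 hpf. The fall depends on the TMM factors, which were 0.7731 and 0.7323 at 0 hpf and 1.28 and 1.246 at 2 hpf. Without these factors the sums at 2 hpf lie above those at 0 hpf, and 6 hpf stays highest. The scaled sum stood at 10529 and 11372 CPM in the libraries of 0 hpf, at 7270 and 7121 CPM at 2 hpf and at 7155 and 7160 CPM at 3 hpf. At 4 hpf it was 10694 and 8278 CPM, and at 6 hpf 22726 and 23843 CPM. A single gene, eef1a1l1 (ENSDARG00000020850), which encodes the tRNA-carrying factor EEF1A, made up much of the later sum. Its part of the counts of all members was 22.9% and 23.7% at 0 hpf, 14.6% and 14.8% at 3 hpf and 49.9% and 52.8% at 6 hpf. In amanitin embryos the sum was 9684 and 9634 CPM at 2 hpf, 9579 and 9649 CPM at 4 hpf and 16206 and 16221 CPM at 6 hpf. The share of eef1a1l1 there was 17.7% and 18.6% at 6 hpf. In whole embryos, fewer cells of a type and less RNA per cell cannot be told apart.

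**Figure D1:**
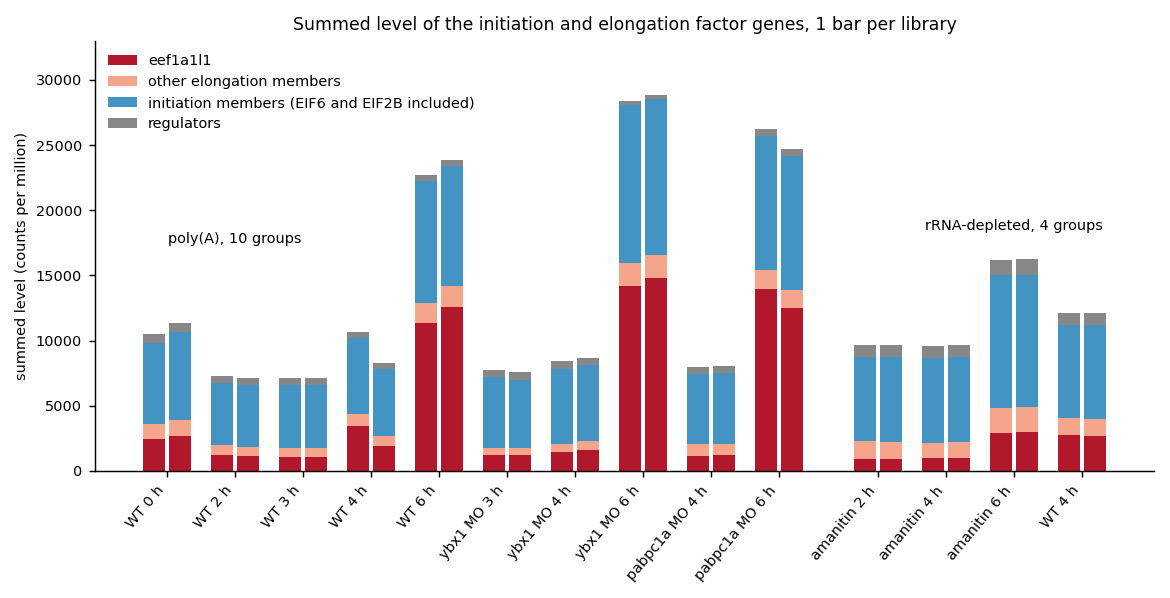
Summed level of the members in each of the 28 libraries, in CPM, split into eef1a1l1, the other elongation members, the initiation members and the regulators; each group has a pair of bars, 1 per library. The WT bars at 6 hpf reach 22726 and 23843 CPM against 7155 and 7160 CPM at 3 hpf, and the eef1a1l1 segment grows from 1043 and 1059 to 11336 and 12594 CPM; heights are comparable within a kit only.

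Nearly all members were present in the egg. With at least 1 CPM in both WT libraries of 0 hpf as the limit, 68 of 77 were present, where 12903 of all 33737 identifiers were. By the same limit 2 members were gained, being under 1 CPM in both libraries of 0 hpf and at 1 CPM or more in both libraries of 4 or of 6 hpf. The number gained among all identifiers is not given here, so the count of 2 has no measure beside it. The gained members were EEF2, one of the genes for the translocating factor, and EEF2K, the kinase that inhibits that factor. EEF2 was at 0.352 and 0.321 CPM at 0 hpf, 1.10 and 0.920 CPM at 2 hpf, 1.29 and 0.863 CPM at 3 hpf, 3.61 and 1.81 CPM at 4 hpf and 2.96 and 3.10 CPM at 6 hpf. EEF2K was at 0.416 and 0.616 CPM at 0 hpf, 0.675 and 0.647 CPM at 4 hpf and 2.77 and 2.06 CPM at 6 hpf. The levels at 0, 4 and 6 hpf are what chose both. The other 7 members met neither condition: EIF4A2, EIF3B ENSDARG00000074213, the pair of EEF1A1 identifiers, eef1a2, EIF2B1 and the eIF2 kinase gene eif2ak2. EIF4A2, which encodes a helicase of the cap complex, lay next to the limit at 0.977 and 1.02 CPM at 0 hpf. Just inside it were eef2a.2 at 1.25 and 1.71 CPM and EIF3H at 1.81 and 1.71 CPM. The second EIF3H identifier and eef2b have no counts here. The levels of EIF3H, EEF2 and eef2a.2 are therefore not those of the whole factor. Without the WT 0 hpf replicate 2 library 4 members counted as gained. With the rRNA-depleted libraries as the measure, 71 members were present in amanitin embryos at 2 hpf. EEF2, at 1.36 and 1.43 CPM, and EEF2K, at 1.49 and 2.03 CPM, were among those present. Both thus count as gained in the poly(A) libraries only. By the rRNA-depleted measure a different pair, EIF2B1 and eif2ak2, was gained in WT at 4 hpf. EIF2B1 only straddled the limit, at 0.987 and 0.796 CPM in amanitin at 2 hpf and 1.36 and 1.22 CPM in WT at 4 hpf. In amanitin at 4 hpf it was at 0.852 and 1.1 CPM, and WT against amanitin was not called.

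The effect of alpha-amanitin on the members was measured apart from this grouping, in the rRNA-depleted libraries of 4 hpf. In WT against amanitin, 36 of the 76 tested members were higher and 26 lower, where 68.9% of all 21525 genes tested were called, 36.2% higher and 32.7% lower. The median log2 fold change was 0.10 for the members and 0.02 for all genes. A call with a rise of 2-fold or more in WT was made for 6 members, or 7.89%, below the 21.7% of all genes that met the same condition, and 3 of these were present in the egg. Called and at least 2-fold lower were 2 members, or 2.63%, where 8.22% of all genes were. EIF4A2 was at 16.5 and 17.5 CPM in WT and 2.24 and 2.1 CPM in amanitin, a log2 fold change of 2.97 ± 0.14 (SE; edgeR adjusted p = 4.26e-14). Of the gained pair, EEF2 was at 5.17 and 4.37 CPM in WT and 1.47 and 1.08 CPM in amanitin (1.91 ± 0.23, edgeR adjusted p = 2.42e-07). EEF2K was at 1.34 and 1.27 CPM in WT and 1.2 and 1.35 CPM in amanitin, and these overlap (edgeR adjusted p = 0.928).

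The members present in the egg that passed 2-fold were all elongation genes. The main EEF1A gene eef1a1l1 was at 2782 and 2686 CPM in WT and 961 and 1017 CPM in amanitin, a log2 fold change of 1.47 ± 0.03 (edgeR adjusted p = 2.77e-17). Its relative eef1a1l3 was at 14.6 and 14.4 CPM in WT and 3.9 and 4.57 CPM in amanitin. For eef2a.1, another gene of the translocating factor, the values were 62.8 and 59.7 CPM in WT and 26.5 and 27.4 CPM in amanitin. None of these groups overlap. The copies of EEF1A, and eef2a.1 and eef2a.2, may be close enough in sequence for the authors' counting to move reads between them, so the division within each family is uncertain. In the poly(A) libraries of WT eef1a1l3 did not rise above its egg level. It was at 6.45 and 5.01 CPM at 0 hpf, 2.76 and 4.6 CPM at 4 hpf and 4.49 and 3.42 CPM at 6 hpf. The sixth member, eif2ak2, was low, at 1.22 and 1.05 CPM in WT and 0.361 and 0.313 CPM in amanitin.

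By role, the cap binding and helicase genes had 12 of 18 members higher and 5 lower in WT than in amanitin at 4 hpf, the EIF3 genes 6 and 4 of 15, the elongation genes 7 and 3 of 14 and the regulators 6 and 4 of 11. The start codon genes had 4 higher and 6 lower of 12. EIF2B, the exchange factor that recharges EIF2 with GTP, had no member higher and 4 of 5 lower. EIF2B2 was at 7.84 and 7.85 CPM in WT and 16.9 and 17.3 CPM in amanitin (-1.12 ± 0.09, edgeR adjusted p = 2.94e-10), and EIF2B5 at 36.7 and 38.4 against 58.4 and 60.8 CPM. Also lower in WT was EEF1D, of the complex that recharges EEF1A, at 14.6 and 14.1 against 32.6 and 30.9 CPM (-1.14 ± 0.07, edgeR adjusted p = 8.69e-12). EIF2B2 and EEF1D, both present in the egg, were the 2 members past 2-fold in this direction.

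**Figure D2:**
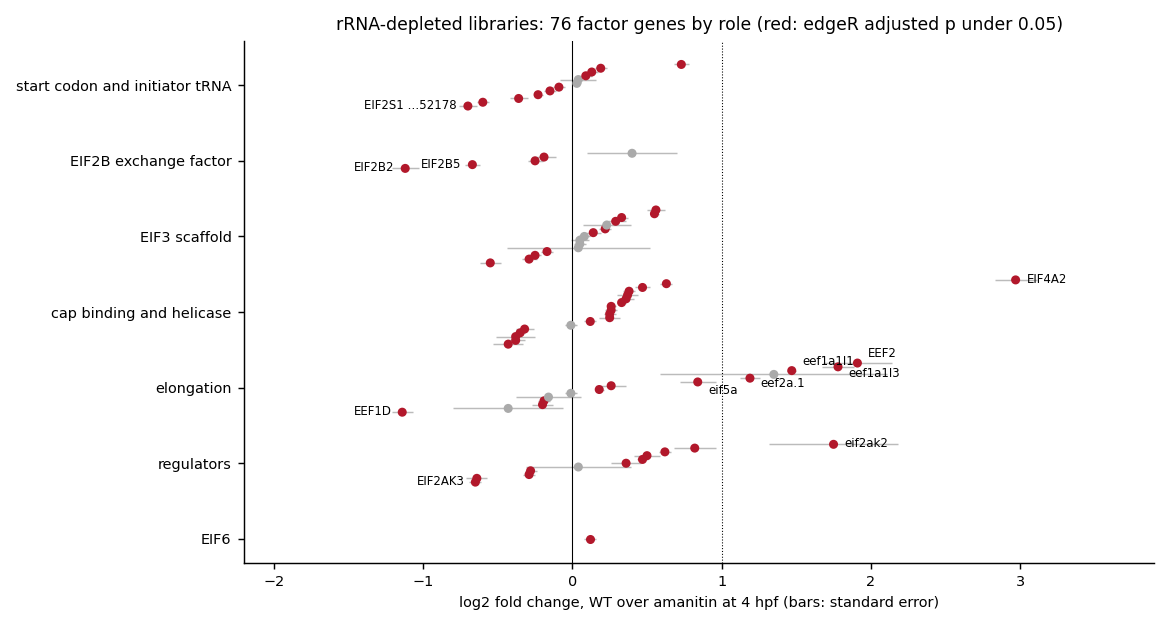
Log2 fold change of the 76 tested members in WT over amanitin embryos at 4 hpf, rRNA-depleted libraries, n = 2 a group, in rows by role; bars are standard errors, red points were called by edgeR and the dotted line marks 2-fold. EIF4A2 stands farthest to the right at 2.97 and EEF1D, at -1.14, and EIF2B2, at -1.12, farthest to the left.

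Between 0 and 2 hpf, before the embryo transcribes much, members moved in both directions in poly(A)-selected RNA. Of 76 tested, 14 were higher and 31 lower at 2 hpf, where 34.3% of all 22377 genes were called (17.6% higher, 16.8% lower), and the median log2 fold change was -0.12 for members and 0.03 for all genes. The TMM factors were 0.7731 and 0.7323 at 0 hpf and 1.28 and 1.246 at 2 hpf. A higher factor lowers the scaled level of every gene. A fall here is thus relative to the other genes after this scaling, and need not be a fall in the plain share of reads. The start codon genes had 7 of 12 lower and 3 higher, the cap genes 7 and 3 of 18, the elongation genes 6 and 2 of 14 and the EIF3 genes 5 and 2 of 15. EIF2S2, the beta subunit of EIF2, fell from 306 and 347 CPM to 146 and 150.4 CPM, a log2 fold change of -1.14 ± 0.12 (edgeR adjusted p = 1.25e-06). EIF4E3, a cap-binding relative of EIF4E, fell from 213 and 244 to 98.9 and 102 CPM, and eif4enif1, which encodes an EIF4E-binding transporter, from 223 and 256 to 77.5 and 89.0 CPM. The gene eef1a1l1 fell from 2411 and 2695 to 1226 and 1116 CPM. In the other direction EEFSEC, the elongation factor for selenocysteine, rose from 2.18 and 2.73 to 13.2 and 14.1 CPM (2.48 ± 0.24, edgeR adjusted p = 5.16e-07). EIF3B ENSDARG00000059654, a core EIF3 subunit, rose from 39.0 and 33.6 to 89.4 and 88.0 CPM, and eif2ak1, an eIF2 kinase gene, from 22.6 and 16.1 to 70.4 and 70.8 CPM. In each of these genes the libraries of the hours do not overlap.

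From 2 to 3 hpf no member was called by edgeR, where 4.59% of all genes were (3.28% higher, 1.3% lower), and 13 members had an unadjusted p under 0.05. DESeq2 called 3 members in the same comparison. From 3 to 4 hpf, 24 members rose and 5 fell, where 27.5% of all genes were called (17.1% higher, 10.5% lower). The median log2 fold change was 0.25 for members and 0.04 for all genes. Among these were 8 of 15 EIF3 genes, 6 of 14 elongation genes and 5 of 18 cap genes that rose, with no EIF3 or elongation gene falling. EIF4A2 went from 0.538 and 0.678 CPM to 13.3 and 4.00 CPM (3.83 ± 0.48, edgeR adjusted p = 0.000165), and eef1a1l1 from 1043 and 1059 to 3419 and 1897 CPM (1.34 ± 0.18, edgeR adjusted p = 0.000147). The highest of the 3 hpf values lies under the lowest of the 4 hpf values for both. EIF3F, an EIF3 subunit, rose from 14.3 and 12.8 to 30.5 and 21.6 CPM, while EIF4EBP2, an inhibitor of EIF4E, fell from 178 and 171 to 82.9 and 125 CPM. These calls lean on single libraries: 5 members were called without WT 4 hpf replicate 1, 12 when WT 3 hpf replicate 1 was dropped and 17 when its partner, WT 3 hpf replicate 2, was. With only the groups of 3 and 4 hpf in the fit, edgeR called no member, and without WT 4 hpf replicate 1 the log2 fold changes were 2.68 for EIF4A2 and 0.81 for eef1a1l1.

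From 4 to 6 hpf, as gastrulation begins, most EIF3 genes rose, while cap genes were called in both directions. Of 76 members, 36 rose and 14 fell, where 59.7% of all genes were called, 27.9% of them upward and 31.8% downward. The median log2 fold change was 0.60 for members and -0.06 for all genes. The TMM factors were 1.142 and 1.18 at 4 hpf and 0.8114 and 0.7154 at 6 hpf. A rise here is thus relative to the other genes after this scaling, and need not be a rise in the plain share of reads. With median-of-ratios scaling, which moves the median of all genes up by 0.28, 48 rose and 9 fell, and the falls of EIF3E, eif4a1b, eef1a2, eif4eb and eif4ba were not called. EIF3 had 11 of 15 higher and 1 lower, with a median of 0.99, and the start codon genes 7 of 12 higher and 1 lower. EIF3D, a subunit that in human can bind the cap, rose from 66.6 and 48.5 to 223 and 196 CPM (1.86 ± 0.13, edgeR adjusted p = 6.51e-09). EIF3G rose from 33.9 and 27.6 to 119.7 and 103 CPM, and EIF3F to 103 and 91.4 CPM. Of the start codon genes, EIF2S2 rose from 159.8 and 132 to 334 and 336 CPM and EIF1AD, related to EIF1A, from 9.61 and 5.18 to 43.3 and 35.2 CPM.

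Of the cap binding and helicase genes 8 of 18 rose and 6 fell from 4 to 6 hpf, where 27.9% of all genes rose and 31.8% fell. The share that fell is thus near that of all genes. Among the falls, those of eif4a1b, eif4eb and eif4ba were not called with median-of-ratios scaling. EIF4E, one of several genes for the cap-binding factor, rose from 6.32 and 4.65 to 60.1 and 50.3 CPM (3.33 ± 0.20, edgeR adjusted p = 1.34e-09), having stayed between 4.31 and 6.32 CPM in every WT library from 0 to 4 hpf. EIF4A2 rose to 41.4 and 60.9 CPM, and EIF4G1, the scaffold of the cap complex, from 139 and 107 to 414 and 495 CPM (1.88 ± 0.18, edgeR adjusted p = 2.21e-07). EIF4E3 fell from 72.9 and 87.3 to 46.4 and 47.8 CPM, and EIF4G3 ENSDARG00000077215, a relative of EIF4G1, from 78.5 and 87.4 to 40.9 and 25.6 CPM. The ovary-type gene EIF4E1B was at 37.2 and 31.3 CPM at 4 hpf and 45.5 and 30.7 CPM at 6 hpf, which overlap. In these examples, picked with their values in view, EIF4E rose where EIF4E3 fell, and EIF4G1 rose where EIF4G3 ENSDARG00000077215 fell.

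The elongation genes had 6 of 14 higher and 2 lower at 6 hpf. The level of eef1a1l1 rose to 11336 and 12594 CPM, a log2 fold change over 4 hpf of 2.17 ± 0.19 (edgeR adjusted p = 7.24e-08), and that of eef2a.1 from 37.4 and 16.9 to 102 and 119 CPM. EEFSEC fell from 8.86 and 11.4 to 4.61 and 4.44 CPM. Among the regulators the EIF4E-binding proteins divided. EIF4EBP3 ENSDARG00000041607 rose from 116 and 88.6 to 206 and 193 CPM (0.97 ± 0.12, edgeR adjusted p = 3.37e-06) and eif4ebp1 from 55.0 and 33.8 to 103 and 79.8 CPM, while EIF4EBP2 fell to 50.6 and 42.4 CPM. The eIF2 kinase genes eif2ak1 and EIF2AK3, of which EIF2AK3 (PERK) responds to stress of the endoplasmic reticulum, fell from 38.8 and 62.2 to 10.8 and 6.70 CPM and from 55.0 and 55.0 to 14.1 and 13.7 CPM. For EIF4A2 the change from 4 to 6 hpf was 2.56, and became 3.66 when WT 4 hpf replicate 1 was dropped and 1.93 when WT 4 hpf replicate 2 was. Without WT 4 hpf replicate 1 that of eef2a.1 was 2.70, against 2.03.

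**Figure D3:**
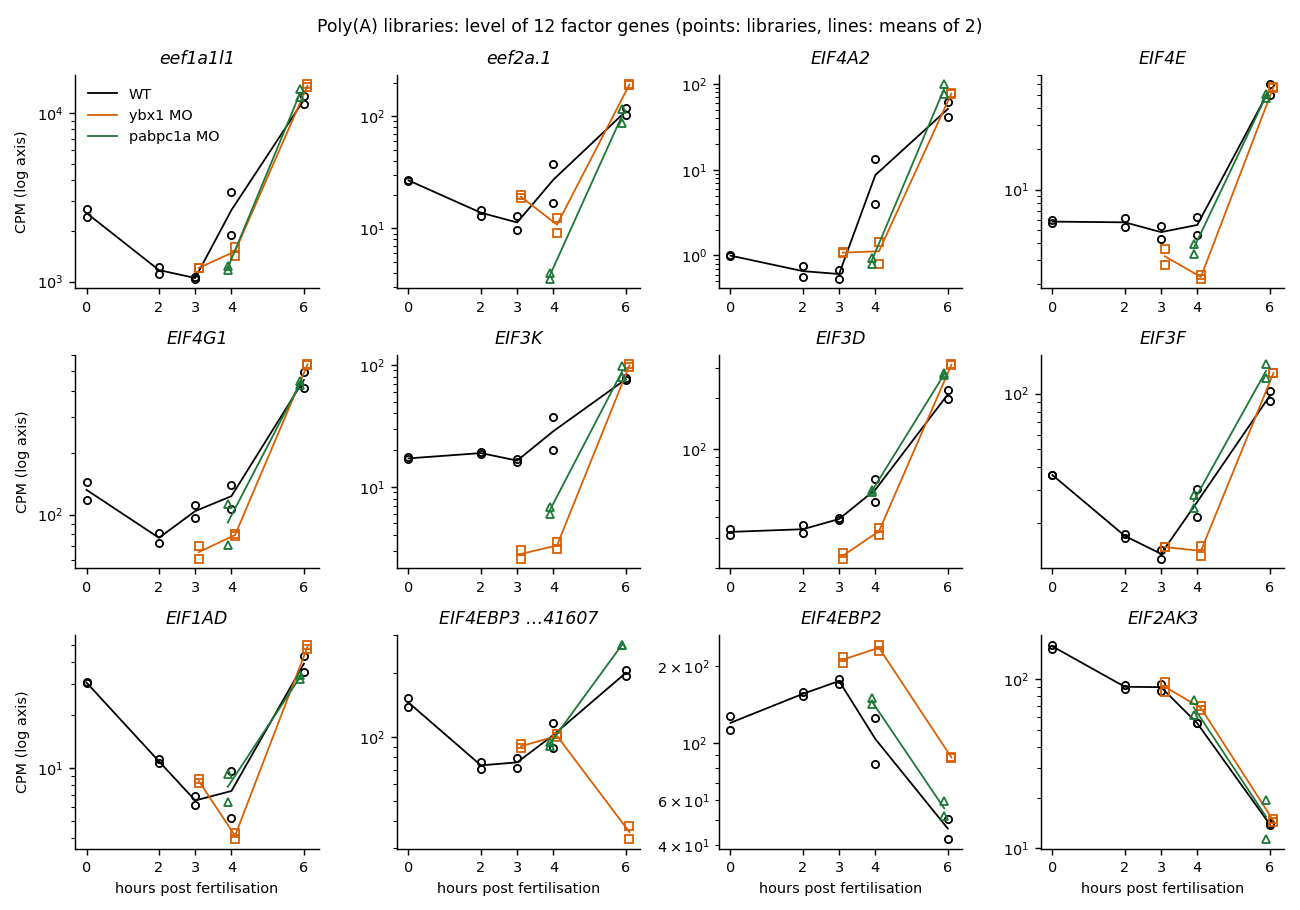
Level of 12 members in the 20 poly(A) libraries, in CPM on a log axis against hours post fertilisation; points are libraries, lines join the means of 2, and colours mark WT, ybx1 MO and pabpc1a MO. In WT, EIF4E stays between 4.31 and 6.32 CPM to 4 hpf and reaches 60.1 and 50.3 CPM at 6 hpf; in ybx1 MO at 6 hpf EIF4EBP3 ENSDARG00000041607 is at 38.0 and 33.1 CPM, below WT at 206 and 193 CPM.

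Egg and gastrula were compared directly in WT at 6 against 0 hpf. There 44 members were higher and 17 lower, where 72.9% of all genes were called (38.6% higher, 34.4% lower), with a median of 0.59 for members and 0.14 for all genes. EIF3B ENSDARG00000059654 stood at 379 and 318 CPM at 6 hpf against 39.0 and 33.6 CPM in the egg (3.26 ± 0.16, edgeR adjusted p = 2.29e-11), and EIF3D at 223 and 196 against 31.3 and 33.7 CPM. EIF2AK3 was lower, at 14.1 and 13.7 against 161 and 152 CPM (-3.49 ± 0.19, edgeR adjusted p = 9.05e-11), as was EIF4E3, at 46.4 and 47.8 against 213 and 244 CPM. Of the EIF3 genes 11 of 15 were higher and 1 lower, and of the elongation genes 10 of 14 were higher and 1 lower.

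In amanitin embryos, members were called in both directions over each interval. From 2 to 4 hpf in amanitin, 16 were higher and 22 lower, where 32.3% of all genes were called (15.6% higher, 16.7% lower), with a median of -0.04 for members and 0.00 for all genes. Without amanitin 2 hpf replicate 1, 25 members were called, and without amanitin 4 hpf replicate 1, 23. EIF1AD fell from 14.7 and 13.2 to 5.88 and 5.74 CPM (-1.26 ± 0.11, edgeR adjusted p = 2.03e-08) and EIF3K, a small peripheral EIF3 subunit, from 42.6 and 41.9 to 26.7 and 27.1 CPM. The start codon genes had 6 of 12 lower and 1 higher, the elongation genes 6 and 1 of 14, and the cap genes 2 lower and 7 higher of 18. From 4 to 6 hpf, 46 rose and 14 fell, where 67.7% of all genes were called (33.1% higher, 34.6% lower), and the median was 0.35 for members and -0.01 for all genes. Of the cap genes 16 of 18 rose and 2 fell, with a median of 0.88, and of the EIF3 genes 12 of 15 rose and none fell, with a median of 0.51. EIF4H, which aids the helicase, rose from 119 and 114 to 288 and 309 CPM (1.36 ± 0.04, edgeR adjusted p = 3.61e-18), and EIF3A, the largest EIF3 subunit, from 344 and 335 to 746 and 769 CPM. The gene eef1a1l1 rose from 961 and 1017 to 2871 and 3012 CPM. These levels depend on the TMM factors, which were 1.105 in both amanitin libraries of 4 hpf and 0.7746 and 0.7807 at 6 hpf. A lower factor raises the scaled level of every gene. A rise in amanitin is therefore a rise relative to the other genes after this scaling, and need not be a rise in the plain share of reads. Without these factors EIF4H, EIF3A and eef1a1l1 still lie higher at 6 than at 4 hpf, by less. Their log2 fold changes of 1.36, 1.16 and 1.57 are far above the member median of 0.35, so this does not extend to the other rises. EIF3D, called higher at 0.31, lies lower at 6 than at 4 hpf without the factors. The counts and medians given here were not made without them.

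The change from 4 to 6 hpf in amanitin and that in WT come from different libraries and kits and share none. Both were called upward for 27 members, or 35.5%, where 9.8% of the 20571 genes tested in both kits were, and both downward for 4, or 5.26% where 15.7% were, namely eif2ak1, EIF2AK3, EIF2B3 and EEFSEC. For 12 members, or 15.8%, they were called in opposite directions, where 21% of all genes were. EIF4E, EIF1AD, eef2a.1 and EIF4G1 rose in WT and fell in amanitin: EIF4E went from 8.20 and 7.36 to 2.90 and 3.61 CPM in amanitin (-1.25 ± 0.15, edgeR adjusted p = 9.30e-08) and EIF1AD from 5.88 and 5.74 to 1.54 and 1.87 CPM. In amanitin eef2a.1 fell from 26.5 and 27.4 to 11.2 and 12.7 CPM, and EIF4G1 from 137 and 141 to 85 and 86 CPM. All 4 are present in the egg by the limit used, and eef2a.1 alone of them was among the 6 members past 2-fold upward in WT at 4 hpf. EIF4EBP2, EIF4E3, both EIF4G3 genes, eif4ba, eif4a1b, EIF3E and eif4eb fell in WT and rose in amanitin. EIF4EBP2 went from 196 and 202 to 421 and 428 CPM in amanitin, against its fall in WT, and EIF4E3 from 184 and 185 to 342 and 345 CPM. The difference between the kits' changes was not tested, and 4 of these 8 falls in WT, those of EIF3E, eif4a1b, eif4eb and eif4ba, were lost with median-of-ratios scaling.

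**Figure D4:**
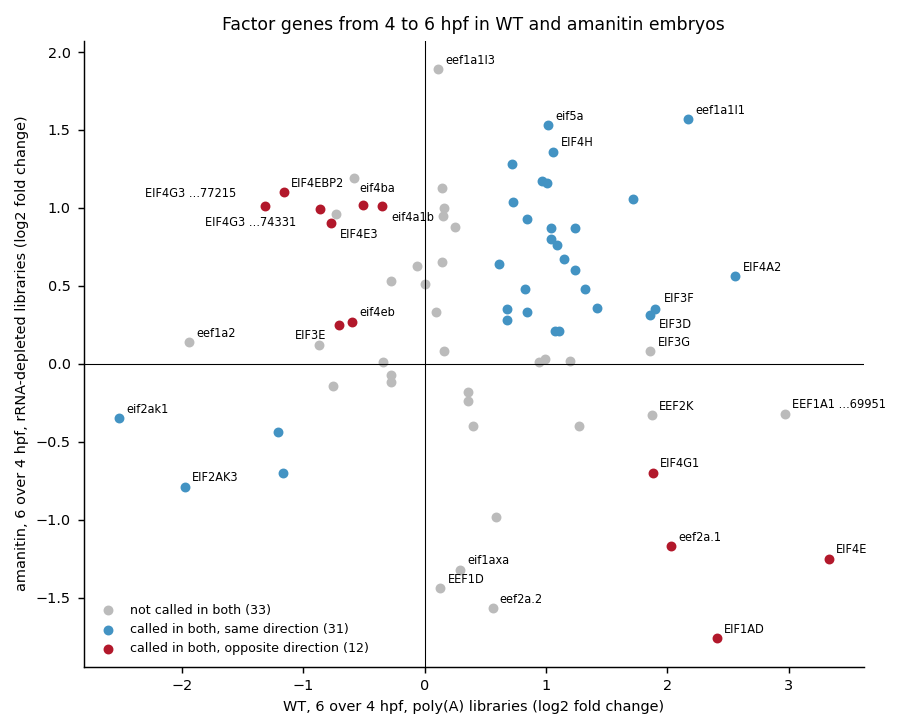
Log2 fold change from 4 to 6 hpf of the 76 members in WT, poly(A) libraries (horizontal), and in amanitin embryos, rRNA-depleted libraries (vertical); each point is a member, n = 2 a group. Blue points, 31, were called in both in the same direction and red points, 12, in opposite directions, with EIF4E at 3.33 in WT and -1.25 in amanitin.

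In ybx1 MO more members were lower than higher than in WT at 3 and 4 hpf, while the balance at 6 hpf depended on 1 library. At 3 hpf, 5 members were higher and 16 lower than in WT, where 14.8% of all genes were called (4.56% higher, 10.2% lower), with a median of -0.09 for members and -0.07 for all genes. EIF3K was at 2.57 and 3.05 CPM in ybx1 MO and 16.8 and 16 CPM in WT, a log2 fold change of -2.54 ± 0.22 (edgeR adjusted p = 1.69e-06). EEFSEC was at 5.05 and 3.65 against 12 and 13 CPM, EIF2S1 ENSDARG00000052178, a gene for the alpha subunit of EIF2, at 8.22 and 6.55 against 15.5 and 18.0 CPM, and EEF1G, of the EEF1A exchange complex, at 93.1 and 85.8 against 153 and 141 CPM. EIF4H was higher, at 156 and 151 against 88.4 and 101 CPM (0.69 ± 0.10, edgeR adjusted p = 0.000321). None of these groups overlap. The count was 11 without WT 3 hpf replicate 1, 9 without ybx1 MO 3 hpf replicate 1 and 10 without ybx1 MO 3 hpf replicate 2, and 44 when only the groups compared entered the fit. The calls of EIF3K, EEFSEC, EIF2S1 ENSDARG00000052178, EEF1G, EIF4H, EIF3D, EIF2B3 and eif4enif1 were kept under every alternative run.

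At 4 hpf, 7 members were higher and 25 lower in ybx1 MO, where 32.2% of all genes were called (12.8% higher, 19.4% lower), with a median of -0.22 for members and -0.06 for all genes. Lower were 7 of 14 elongation genes, with none higher, and 7 of 15 EIF3 genes, with 1 higher. EIF3K was at 3.07 and 3.52 CPM in ybx1 MO and 37.2 and 20.1 CPM in WT (-3.12 ± 0.22, edgeR adjusted p = 2.92e-07). EIF4A2 was at 0.791 and 1.45 CPM against 13.3 and 4.00 CPM, EIF4E at 2.32 and 2.20 against 6.32 and 4.65 CPM, and eef1a1l1 at 1419 and 1605 against 3419 and 1897 CPM. EEF1G was at 115 and 114 CPM against 231 and 184 CPM. EIF4EBP2 was higher, at 243 and 229 against 82.9 and 125 CPM (1.18 ± 0.15, edgeR adjusted p = 4.58e-05). With only the groups compared in the fit edgeR called 3 members, EIF4EBP2, EEF1G and EIF3K. Without WT 4 hpf replicate 1 the count was 20, with EIF4A2 at -1.86 in place of -2.97, and without ybx1 MO 4 hpf replicate 1 it was 21.

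At 6 hpf, 18 members were higher and 12 lower in ybx1 MO, where 27.5% of all genes were called (11.9% higher, 15.6% lower), with a median of 0.12 for members and -0.06 for all genes. EIF4EBP3 ENSDARG00000041607, an inhibitor of EIF4E, was at 38.0 and 33.1 CPM in ybx1 MO and 206 and 193 CPM in WT, a log2 fold change of -2.49 ± 0.13 (edgeR adjusted p = 1.00e-08). The other gene of that name, eif4ebp3 ENSDARG00000054916, was at 30.0 and 30.2 CPM against 28.2 and 24.8 CPM. EIF4EBP2 remained higher, at 88.5 and 87.7 against 50.6 and 42.4 CPM, so the EIF4E-binding proteins differed among themselves. EIF4G2 ENSDARG00000020377, a scaffold relative that lacks the site for EIF4E, was at 1096 and 1092 CPM against 464 and 520 CPM (1.15 ± 0.12, edgeR adjusted p = 7.34e-06), and EIF6 at 109 and 109.9 against 54.9 and 57.0 CPM. EIF3D, which was lower at 3 and 4 hpf, was higher at 6 hpf, at 311 and 315 against 223 and 196 CPM. Without WT 6 hpf replicate 2 the calls divided into 12 higher and 13 lower. The count was 18 without ybx1 MO 6 hpf replicate 1 and 15 without ybx1 MO 6 hpf replicate 2, and 15 of the 30 calls, those of EIF4EBP3 ENSDARG00000041607, EIF4G2 ENSDARG00000020377, EIF6, EIF4EBP2 and EIF3D among them, were kept under every alternative.

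Across the 3 hours EIF2S1 ENSDARG00000052178, EEF1D and EEFSEC were lower in ybx1 MO at each, and EIF4H, EIF1B, EIF3A and EIF4G2 ENSDARG00000020377 higher at each. At 6 hpf EIF2S1 ENSDARG00000052178 was at 14.1 and 13.2 CPM against 25.9 and 27.5 CPM, EEFSEC at 1.39 and 1.89 against 4.61 and 4.44 CPM, and EIF3A at 945 and 947 against 582 and 614 CPM. The marker sums differed too. At 3 hpf 4 genes of the first zygotic wave summed to 2.95 and 2.40 CPM in ybx1 MO and 91.3 and 177 CPM in WT, and all 4 were called lower. At 4 hpf the egg markers summed to 708 and 674 CPM in ybx1 MO and 277 and 471 CPM in WT, and the gastrula markers to 9.22 and 9.32 CPM against 309 and 74.2 CPM. The gastrula gap was mostly krt8, at a mean of 6.85 against 189.7 CPM, and 1 gastrula marker was called higher and 2 lower. The first zygotic markers summed to 297 and 370 CPM against 549.7 and 396 CPM at 4 hpf, with none called. At 6 hpf the gastrula sum was 3512 and 3521 CPM in ybx1 MO and 2716 and 2317 CPM in WT, and the egg sum 41.8 and 39.7 against 34.7 and 36.9 CPM. Most of that gastrula sum was krt8, at a mean of 3321 CPM in ybx1 MO and 2196 CPM in WT. The means of cdx4 (83.9 against 192 CPM), SOX2 (78.1 against 86 CPM) and frzb (33.5 against 42.3 CPM) were lower in ybx1 MO. Of the gastrula markers 0 were called higher and 1 lower at 6 hpf. The first zygotic markers summed to 1254 and 1234 CPM in ybx1 MO and 730.4 and 649.6 CPM in WT at 6 hpf, with none called. No marker was at 0 in these libraries, and the part of such stage differences in the members' changes was not tested.

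In pabpc1a MO at 4 hpf elongation genes were among the lowest against WT. There 6 members were higher and 15 lower than in WT, where 34.3% of all genes were called (13.5% higher, 20.8% lower), a share above that of the members, and the medians were -0.06 for members and -0.08 for all genes. Of the elongation genes 6 of 14 were lower and 1 higher. EIF4A2 was at 0.933 and 0.803 CPM against 13.3 and 4.00 CPM in WT (-3.31 ± 0.46, edgeR adjusted p = 0.000186), eef2a.1 at 4.01 and 3.57 against 37.4 and 16.9 CPM (-2.84 ± 0.30, edgeR adjusted p = 2.43e-05), and EIF3K at 6.02 and 6.81 against 37.2 and 20.1 CPM. The level of eef1a1l1 was 1178 and 1236 CPM against 3419 and 1897 CPM, and that of EIF1 96.2 and 102 against 227 and 153 CPM. EEF1B2, the exchange subunit for EEF1A, was higher, at 239 and 188 against 124 and 119.7 CPM (0.81 ± 0.11, edgeR adjusted p = 7.65e-05). No member was called when only the groups compared entered the fit. The count was 35 without WT 4 hpf replicate 2, 11 without pabpc1a MO 4 hpf replicate 1 and 12 without pabpc1a MO 4 hpf replicate 2. Without WT 4 hpf replicate 1 it divided into 9 higher and 6 lower, with -2.16 for EIF4A2, -2.11 for eef2a.1, -1.60 for EIF3K and -0.61 for eef1a1l1, in place of -3.31, -2.84, -2.16 and -1.14. In these libraries the egg markers summed to 1047 and 885 CPM in pabpc1a MO and the gastrula markers to 2.93 and 3.9 CPM, against 277 and 471 CPM and 309 and 74.2 CPM in WT, and their part in the result was not tested. Both knockdowns are set against the same WT libraries, so their changes at an hour are not independent.

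At 6 hpf, 6 members were higher and 5 lower in pabpc1a MO, where 9.16% of all genes were called (4.55% higher, 4.61% lower). EIF4H was at 373 and 341 CPM against 268 and 240 CPM in WT (0.49 ± 0.10, edgeR adjusted p = 0.00638), EIF5, which makes EIF2 hydrolyse GTP, at 267 and 244 against 342 and 371 CPM (-0.48 ± 0.10, edgeR adjusted p = 0.00875), and EEFSEC at 2.31 and 1.92 against 4.61 and 4.44 CPM. The members that were lowest against WT at 4 hpf lay near WT by then: eef2a.1 was at 117 and 87.5 against 102 and 119 CPM, and eef1a1l1 at 13933 and 12470 against 11336 and 12594 CPM, both overlapping WT. EIF4A2 was at 99.4 and 76.6 CPM against 41.4 and 60.9 CPM and did not pass the test (edgeR adjusted p = 0.259). These calls are unstable, since 3, all lower, were made without WT 6 hpf replicate 2, 7 without pabpc1a MO 6 hpf replicate 1, 1 without pabpc1a MO 6 hpf replicate 2, 3 higher and 6 lower with no filter, and none with only the groups compared in the fit.

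**Figure D5:**
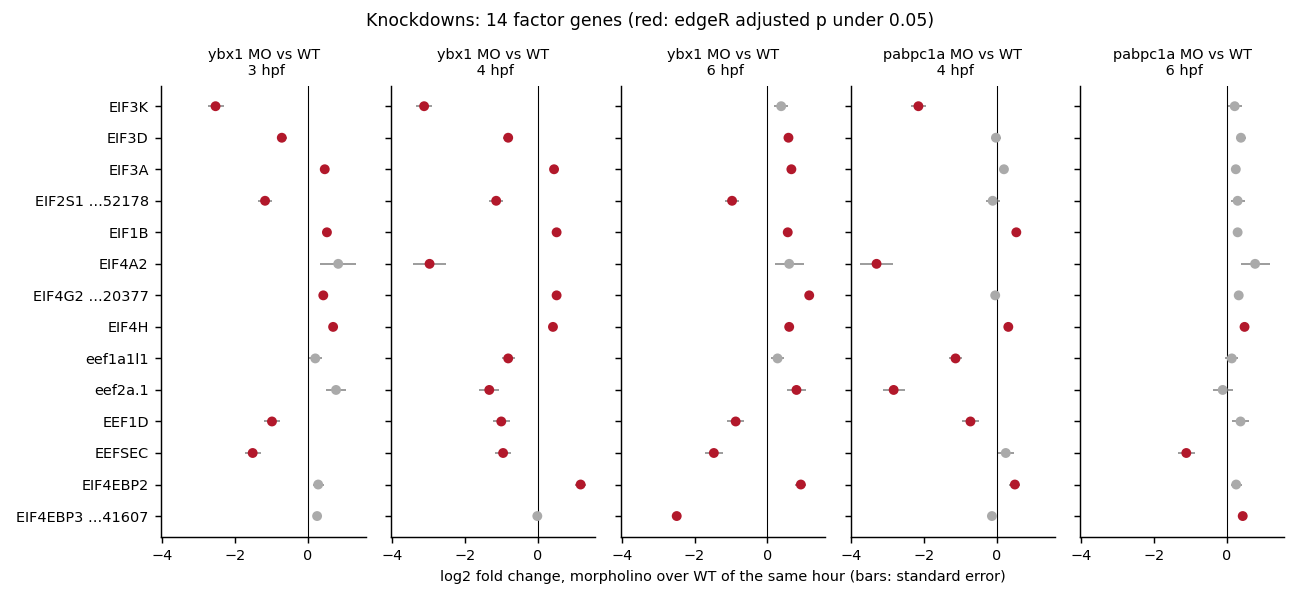
Log2 fold change of 14 members in each knockdown over WT of the same hour, poly(A) libraries, n = 2 a group; bars are standard errors and red points were called by edgeR. EIF3K lies at -2.54 and -3.12 in ybx1 MO at 3 and 4 hpf and at 0.38 at 6 hpf, where it was not called, and EIF4EBP3 ENSDARG00000041607 lies at -2.49 in ybx1 MO at 6 hpf.

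The change of each knockdown's effect between 4 and 6 hpf was tested as an interaction. For ybx1 MO the effect was higher at 6 than at 4 hpf for 26 members and lower for 5, where 26.4% of all genes were called (14.8% higher, 11.6% lower), with medians of 0.19 for members and 0.06 for all genes. The EIF3 genes had 8 of 15 higher and none lower. EIF3K changed by 3.50 ± 0.30 (edgeR adjusted p = 2.89e-06): its level in ybx1 MO went from 3.07 and 3.52 CPM at 4 hpf to 96.9 and 101 CPM at 6 hpf, and in WT from 37.2 and 20.1 to 74.6 and 78.0 CPM. EIF4A2 changed by 3.57 ± 0.60 (edgeR adjusted p = 0.000999) and EIF4E by 1.32 ± 0.26. EIF4EBP3 ENSDARG00000041607 changed the other way, by -2.48 ± 0.17 (edgeR adjusted p = 6.10e-07), from 100.2 and 103 CPM in ybx1 MO at 4 hpf, beside 116 and 88.6 CPM in WT. Without WT 4 hpf replicate 1 the interactions of EIF4A2 and EIF3K were 2.48 and 2.99, and without ybx1 MO 4 hpf replicate 1, 18 were called. For pabpc1a MO 10 members had a higher effect at 6 hpf and 6 a lower, where 22.8% of all genes were called (14.1% higher, 8.72% lower). EIF4A2 changed by 4.10 ± 0.61 (edgeR adjusted p = 0.00075), eef2a.1 by 2.73 ± 0.40 and EIF3K by 2.38 ± 0.29. These were the 3 calls kept under every alternative. The count was 32 without WT 4 hpf replicate 2 and 8 without pabpc1a MO 4 hpf replicate 1, and without WT 4 hpf replicate 1 it divided into 5 higher and 7 lower, with EIF4A2 at 2.93, eef2a.1 at 1.99 and EIF3K at 1.81.

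Other genes of translation were counted beside the factors. Of all genes tested, 27.9% rose and 31.8% fell in WT from 4 to 6 hpf, and 33.1% rose and 34.6% fell in amanitin. From a list of 35 genes of release, recycling, TOR signalling, repression, stress and modification of the factors, 11 rose and 18 fell in WT from 4 to 6 hpf, with a median of -0.39 beside 0.60 for the factors. Of its 10 TOR and kinase genes, which regulate the factors, 7 fell and none rose (median -1.24). Both TSC1 genes were among the falls (-3.39 and -1.39), while MTOR (-0.04) and rps6kb1b (0.12) were not called. The list pools genes of unlike roles, so this count does not measure TOR signalling. In amanitin over the same hours, 7 of the 10 TOR and kinase genes rose and 3 fell (median 0.55), and of the 35, 18 rose and 13 fell. Of 15 aminoacyl-tRNA synthetase genes, which charge tRNAs, 6 rose and 3 fell in WT (median 0.18), and 12 rose and 3 fell in amanitin (median 0.78). In ybx1 MO at 4 hpf 7 synthetase genes were higher and 3 lower, where 12.8% of all genes were higher and 19.4% lower. At 3 hpf the lean was the other way, with 1 higher and 5 lower, where 4.56% of all genes were higher and 10.2% lower. In pabpc1a MO at 4 hpf 5 were higher and none lower, where 13.5% of all genes were higher and 20.8% lower. Both counts of 4 hpf rest on the WT pair whose libraries stood apart. No alternative was run for these lists.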

How the data were processed

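The deposited files hold counts, whole numbers of reads per Ensembl gene, made by the authors with TopHat2 2.1.1 and HTSeq 0.6.0 per the submitters' processing notes. Sources used here do not give the genome build, annotation or strand setting. HTSeq's summary lines were left out. Symbols come from a reference table. A title with MO and no gene was read as ybx1 MO, following the design text. The amanitin pairs are described as biological replicates. Nothing says this of the others, so p-values measure only the spread between these samples.

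Counts of each kit had their own edgeR 4.0.16 model (R 4.3.3): genes kept by filterByExpr (22377 poly(A), 21525 rRNA-depleted), TMM scaling, and the robust quasi-likelihood test over all groups (10 and 4 residual degrees of freedom), with Benjamini-Hochberg adjustment over all genes at 0.05. Of the members 76 passed the filter in each kit, and EEF1A1 ENSDARG00000039502 did not. Simulated data with known changes were used to test the code. Alternatives were DESeq2 1.42.0, median-of-ratios scaling, no filter, a replicate block, models holding just the compared groups, and each library left out in turn. Replicate numbers did not pair the libraries.

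Named are the eef1a, eef2, eef1 exchange, eif5a, eif4, eif3, eif2 and eif1 genes, gained members, and in each comparison the 5 highest and 5 lowest called members of at least 10 CPM whose libraries do not overlap, with 3 each way for interactions. From these, the examples printed were picked with their values in view. The members, the lists and the rule were chosen with earlier results of these data known.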

Additional observations from a re-analysis of the deposited data

Results flagged for a closer look

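The effect of a knockdown differed between 4 and 6 hpf by an interaction test in edgeR, with Benjamini-Hochberg adjustment over all genes, for 31 members in ybx1 MO and 16 in pabpc1a MO. These are 40.8% of the members where 26.4% of all genes were called, and 21.1% where 22.8% were. For pabpc1a MO the share of members called is thus not above that of all genes. Given here as the effect at 6 hpf minus that at 4 hpf on the log2 scale, those named by the rule for ybx1 MO were EIF3K at 3.50, EIF3D at 1.39 and EIF3F at 1.29 upward, and EIF4EBP3 ENSDARG00000041607 at -2.48, eif1axa at -0.86 and EIF4G3 ENSDARG00000074331 at -0.84 downward. For pabpc1a MO they were EIF4A2 at 4.10, eef2a.1 at 2.73 and EIF3K at 2.38 upward, and EEFSEC at -1.35, EIF4G3 ENSDARG00000074331 at -0.87 and EEF1B2 at -0.61 downward. Both interactions rest on the same WT libraries, including the pair of 4 hpf whose libraries stood apart. That of pabpc1a MO also rests on its pair of 6 hpf, whose TMM factors differed.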

How the results depend on the processing

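Of 507 calls of a member in a comparison, 301 were kept under every alternative run and no called change turned its direction. The comparison of WT at 3 against 2 hpf gave 1 call with median-of-ratios scaling, 1 with no filter, 1 with the replicate block, 3 with DESeq2 and 21 with only the groups compared in the fit, against 0 as reported. Fitting only the groups compared, with fewer samples, gave 0 calls for WT 4 against 3 hpf, 44 for ybx1 MO at 3 hpf, 3 for ybx1 MO at 4 hpf, 0 for pabpc1a MO at 4 and at 6 hpf, 12 for the ybx1 MO interaction and 3 for that of pabpc1a MO. Gained members numbered 0 with a limit of 5 CPM and 4 without WT 0 hpf replicate 2. Leaving out 1 library at a time gave 38 to 41 calls for WT 2 against 0 hpf, 0 to 0 for 3 against 2, 5 to 41 for 4 against 3, 50 to 57 for 6 against 4 and 56 to 63 for 6 against 0. It gave 9 to 14, 20 to 44 and 15 to 25 for ybx1 MO at 3, 4 and 6 hpf, 11 to 35 and 1 to 13 for pabpc1a MO at 4 and 6 hpf, and 18 to 38 and 8 to 32 for the interactions. For WT against amanitin it gave 54 to 57, and for amanitin 4 against 2 and 6 against 4 hpf 23 to 29 and 59 to 62. Without either egg library in turn 70 and 68 members were present in the egg and 2 and 4 gained. Replicate numbers are shared by label only, and same-numbered deviations correlated between -0.11 and 0.08. The replicate block gave 45 calls for WT 2 against 0 hpf, and apart from WT 3 against 2 hpf no count moved by over 1.5 times. Crossing the numbers for pabpc1a MO at 4 hpf, an alternative chosen after seeing the data, gave 21 calls. Levels near 1 CPM set which members count as gained, so that number depends on where the limit lies.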
